A study of Mus musculus with 12 samples.

Results

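Manic fringe (Mfng), the other fringe genes and 6 further genes of Notch signalling were followed through macrophages given interleukin 4 (IL4), retinoic acid (RA), both or neither. The genes were chosen by symbol, Mfng because its RNA differed with RA in IL4-treated cells and the others because they belong to its pathway. The choice was made with earlier results of these data known. Of the 9 symbols, 8 had a row among the 13553 genes of the table (Mfng, Lfng, Rfng, Notch1, Notch2, Jag1, Ncstn and Rbpj), and all 8 passed the filter on low values. Hes1 was not analysed here. The cells were bone marrow derived macrophages of wild-type male C57BL/6 mice, differentiated in medium with 10 ng/mL M-CSF, a macrophage growth factor. A pre-treatment of 24 h with 20 ng/mL IL4, or with its control medium, came before 6 h with 1 µM all-trans RA or DMSO, the vehicle. The 4 groups, naive vehicle and naive RA without IL4 and IL4 vehicle and IL4 RA with it, hold 3 libraries each, numbered 2, 3 and 4. The labels do not say whether these numbers stand for separate animals or cultures, so a p-value measures the spread between libraries, which may be technical.

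Notch receptors are read out by cutting. A ligand such as Jagged on a neighbouring cell exposes the receptor to a surface protease and then to gamma-secretase, and the freed intracellular part enters the nucleus and joins the DNA-binding protein RBPJ to switch on genes of the HES and HEY families. Fringe enzymes work earlier, in the Golgi, where they extend O-linked fucose on the receptor with N-acetylglucosamine and so change which ligands activate it. Notch signals are known to shape macrophage differentiation and activation, and RBPJ takes part in both.

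The mouse fringe genes are related, and the stretch in which their coding sequences are closest is shown because it bears on whether reads of Mfng, Lfng and Rfng can be told apart. It covers the codons of the metal-binding motif of the enzymes. Capitals mark the run shared with Mfng. Each stretch is interrupted by an intron, so the positions (GRCm38, GENCODE vM21) span more bases than are printed. They are chr15:78764419-78766837 on the minus strand for Mfng, chr5:140612371-140612552 on the plus strand for Lfng and chr11:120783111-120783286 on the minus strand for Rfng.
Mfng: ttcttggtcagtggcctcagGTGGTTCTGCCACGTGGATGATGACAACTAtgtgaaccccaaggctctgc
Lfng: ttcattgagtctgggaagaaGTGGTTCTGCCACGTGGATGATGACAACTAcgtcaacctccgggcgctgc
Rfng: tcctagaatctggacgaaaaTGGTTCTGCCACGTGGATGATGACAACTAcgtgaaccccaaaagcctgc
The longest identical run was 30 bases between Mfng and Lfng, 29 between Mfng and Rfng and 32 between Lfng and Rfng, in the coding sequences and in the whole transcripts alike. All are shorter than the 101 cycles sequenced from 1 end.

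Promoter sequence is shown for Lfng and Rbpj, among the genes whose RNA was higher with RA in naive and in IL4 cells. It is also shown for Rfng, whose RNA was not called in either. The windows are the 250 bases before a start site in RefSeq (GRCm38.p6), read in the direction of the gene. They lie at chr5:140607091-140607340 (plus strand) for Lfng and at chr5:53590096-53590345 (plus strand) for the first of 2 Rbpj starts listed there. The Rfng window lies at chr11:120784205-120784454 (minus strand). Both Rbpj starts and the Rfng start lie inside the annotated span of their gene. Capitals mark TGGGAA, the core that RBPJ binds, on either strand. They also mark nuclear receptor half-sites, searched on both strands as AGGTCA and as GGGTCA, together with the forms GGTTCA and then AGTTCA.
Lfng: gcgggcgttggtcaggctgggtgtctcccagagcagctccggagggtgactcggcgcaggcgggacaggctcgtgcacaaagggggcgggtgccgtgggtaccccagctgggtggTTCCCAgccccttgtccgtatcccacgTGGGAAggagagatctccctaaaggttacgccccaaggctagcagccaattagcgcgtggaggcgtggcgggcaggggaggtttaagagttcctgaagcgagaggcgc
Rbpj: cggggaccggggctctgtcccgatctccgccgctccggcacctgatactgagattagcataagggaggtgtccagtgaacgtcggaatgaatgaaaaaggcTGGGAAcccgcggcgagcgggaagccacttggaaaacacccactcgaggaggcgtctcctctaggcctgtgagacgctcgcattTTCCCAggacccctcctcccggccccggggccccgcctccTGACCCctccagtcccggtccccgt
Rfng: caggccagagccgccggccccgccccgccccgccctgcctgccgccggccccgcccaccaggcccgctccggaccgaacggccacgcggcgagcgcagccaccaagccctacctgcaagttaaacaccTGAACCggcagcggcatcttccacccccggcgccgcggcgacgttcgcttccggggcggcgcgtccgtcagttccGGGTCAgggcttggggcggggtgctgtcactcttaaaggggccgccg
Lfng held TGGGAA at 135 to 130 bases (on the opposite strand) and at 108 to 103 bases before its start, and no half-site. Rbpj held TGGGAA at 149 to 144 and, on the opposite strand, at 65 to 60 bases, and 1 half-site. Rfng held no TGGGAA and 2 half-sites, of which GGGTCA at 47 to 42 bases lies within the annotated span of the gene. Notch1 was also called higher with RA in naive and in IL4 cells, and its window, not printed, held 0 TGGGAA and 0 half-sites. The window of the second Rbpj start held 1 TGGGAA and 1 half-site. Among 32536 windows of the same length, 21.6% held TGGGAA and 38.6% held at least 1 half-site. A pair of half-sites repeated in the same direction 5 bases apart, the classical RA receptor element, was in none of the windows found for 7 of the genes and in 0.0891% of all windows. The matches describe letters in these windows and nothing about binding.

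Across the groups, RA was accompanied by higher Mfng, Lfng, Notch1 and Rbpj RNA, and IL4 by higher Rbpj and lower Lfng and Rfng RNA. Counts are of the 7 genes without Mfng. The genes were chosen with earlier results of these data known, so their shares beside those of all genes are descriptions. In naive cells 3 rose with RA and 0 fell, against 6.26% of all 12116 genes tested that were called, 3.24% higher and 3.03% lower. In IL4 cells 4 rose with RA and 1 fell (11.7% of all genes called, 6.5% higher and 5.18% lower). With IL4, 1 rose and 4 fell in vehicle (60.1% of all genes called, 30.5% higher and 29.6% lower), and 2 rose and 3 fell in RA (55.7%, 29% higher and 26.7% lower), so the share called was near the background for IL4. The difference between the RA effects in IL4 and in naive cells was called for 0 of the 7 genes by limma at adjusted p under 0.05 (0.38% of all genes, 0.338% higher and 0.0413% lower). At an unadjusted p under 0.05, 2 of the 7 passed, Lfng and Ncstn. The contrasts share libraries, naive vehicle and naive RA between the RA effect in naive cells and the difference of the effects, for example, and so are not independent of each other.

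**Figure D1:**
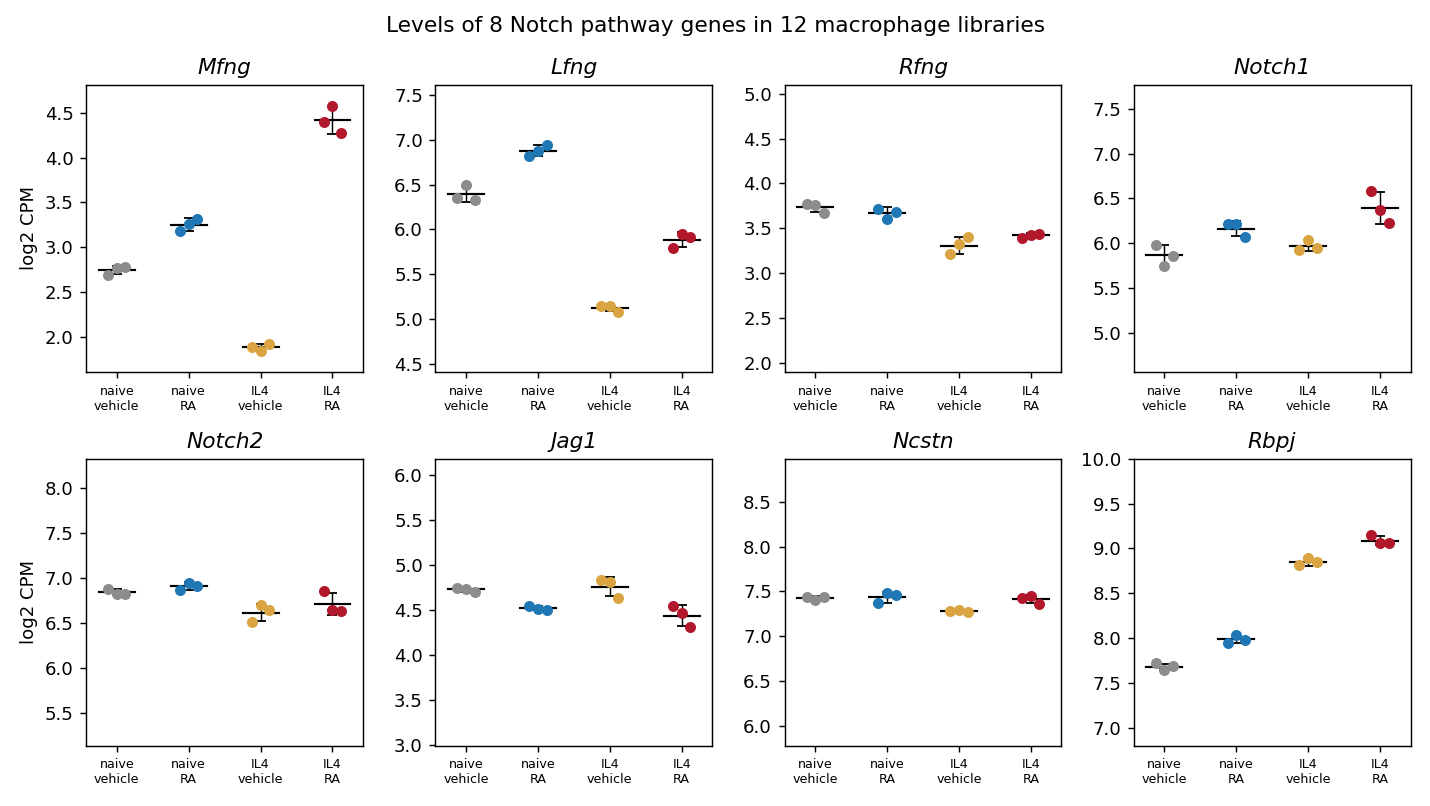
Level of 8 Notch pathway genes in each of 12 libraries, in log2 CPM (y axis, the same span of log2 units in every panel) by group (x axis); points are libraries, long bars group means and error bars SD of n = 3. Mfng in IL4 RA, at 4.27 to 4.58, lies above its other 9 libraries, and Rbpj lies higher in both IL4 groups than in both naive groups.

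Mfng encodes manic fringe (Entrez 17305, chromosome 15, 78755882 to 78773516, minus strand). It read 2.69, 2.77 and 2.78 log2 CPM in naive vehicle and 3.18, 3.26 and 3.32 in naive RA. In IL4 vehicle it read 1.89, 1.84 and 1.92, and in IL4 RA 4.40, 4.58 and 4.27. From low to high the order was IL4 vehicle, then naive vehicle, naive RA and IL4 RA, with no overlap between neighbours. On the linear scale the group means were 3.69, 6.72, 9.55 and 21.4 CPM (read counts scaled to library size) in that order. The group with IL4 alone was thus the lowest and the group with IL4 and RA the highest.

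In naive cells, a contrast Mfng was not chosen for, it rose by 0.51 with RA (log2 difference, SE 0.08), or 1.42-fold (limma with Benjamini-Hochberg adjustment over all genes tested, adjusted p = 0.00155). The difference held its direction and its call under every alternative tried. In IL4 cells, the contrast it was chosen for, the RA difference was 2.53 (SE 0.08), or 5.79-fold, given as a description with no test. The difference between the effects in IL4 and naive cells was 2.03 (95% interval 1.78 to 2.27), also a description since it rests on the same libraries. With IL4, Mfng differed by -0.86 in vehicle and by 1.16 in RA, so the sign of the IL4 difference was opposite in the presence of RA. On log2(CPM + 1), which counts low values less, the RA difference in IL4 cells was 2.25. In bulk RNA of this kind, fewer cells of a type and less RNA per cell cannot be told apart.

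Lfng encodes lunatic fringe, the fringe gene with the highest RNA level per transcript length in all 12 libraries (Entrez 16848, chromosome 5, 140607341 to 140615545, plus strand). Its libraries read 6.35, 6.49 and 6.33 log2 CPM in naive vehicle and 6.82, 6.87 and 6.94 in naive RA. With IL4 they read 5.15, 5.15 and 5.08 in vehicle and 5.79, 5.95 and 5.91 in RA. No 2 groups overlapped, and both IL4 groups lay below both naive groups. RA raised Lfng by 0.49 in naive cells (SE 0.05, limma adjusted p = 7.8e-05) and by 0.76 in IL4 cells (adjusted p = 8.3e-07). It fell by 1.26 with IL4 in vehicle (adjusted p = 3.1e-10) and by 0.99 in RA (adjusted p = 3.4e-09). The RA effects in IL4 and naive cells differed by 0.27 (95% interval 0.11 to 0.43), which was not called after adjustment (adjusted p = 0.244). Mfng and Lfng thus both rose with RA in naive cells, and in RA-treated cells the IL4 difference was 1.16 for Mfng and -0.99 for Lfng.

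Rfng, radical fringe (Entrez 19719, chromosome 11, 120780745 to 120784251, minus strand), was the least variable of the fringe genes. It read 3.77, 3.76 and 3.67 log2 CPM in naive vehicle and 3.72, 3.60 and 3.68 in naive RA. In IL4 vehicle it read 3.21, 3.32 and 3.40, and in IL4 RA 3.39, 3.43 and 3.44. The vehicle and RA libraries overlapped in naive and in IL4 cells, while the naive and IL4 libraries did not overlap. The RA difference was -0.06 in naive cells (95% interval -0.20 to 0.08) and 0.11 in IL4 cells (-0.03 to 0.25). Neither was called (adjusted p = 0.65 and 0.30). Rfng fell by 0.43 with IL4 in vehicle (adjusted p = 7.2e-05) and by 0.25 in RA (adjusted p = 0.0049).

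Levels of different genes can be compared only per length, so CPM was divided by the length of 1 GENCODE transcript of each fringe gene (1865 bases for Mfng, 2305 for Lfng and 2118 for Rfng). On this scale Mfng stood at 3.60 ± 0.12 CPM per kb in naive vehicle (SD, n = 3), 5.12 ± 0.24 in naive RA, 1.98 ± 0.05 in IL4 vehicle and 11.5 ± 1.2 in IL4 RA. Lfng stood at 36.5 ± 2.2, 51.1 ± 2.1, 15.2 ± 0.4 and 25.7 ± 1.5, and Rfng at 6.28 ± 0.22, 6.01 ± 0.26, 4.68 ± 0.31 and 5.06 ± 0.10 in the same order. The sum of the 3 genes was 46.4, 62.2, 21.8 and 42.2 CPM per kb. Mfng made up 7.78 ± 0.43% of that sum in naive vehicle, 8.23 ± 0.13% in naive RA, 9.06 ± 0.30% in IL4 vehicle and 27.2 ± 2.0% in IL4 RA. Lfng made up 78.7%, 82.1%, 69.5% and 60.8%. Mfng was the lowest of the 3 genes in the first 3 groups and lay above Rfng in the IL4 RA libraries. Its share in IL4 RA contains the difference it was chosen for and is a description.

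**Figure D2:**
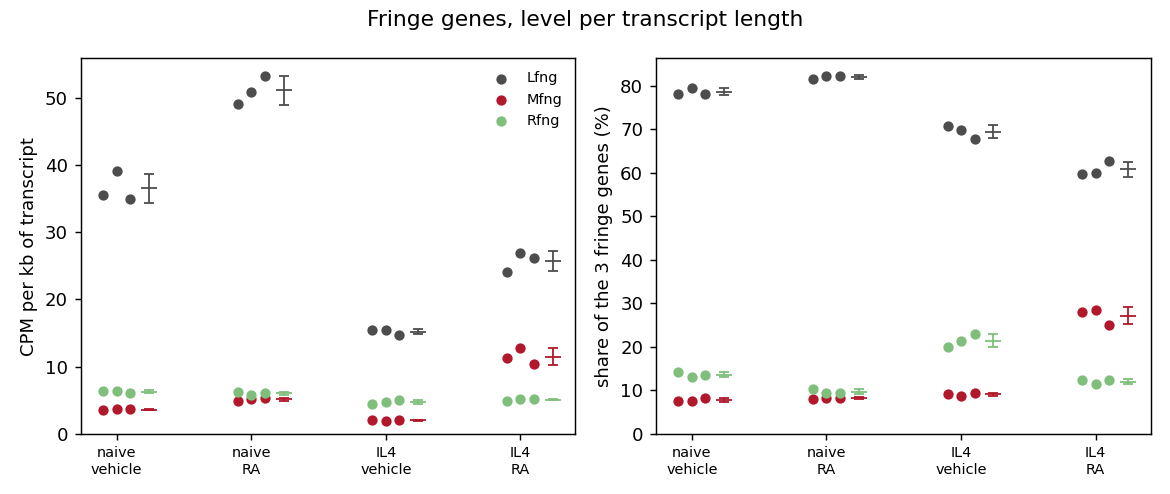
Left, level of each fringe gene in CPM per kb of transcript (y axis) by group (x axis); right, its percent share of the sum of the 3 genes. Points are libraries and bars to their right are mean and SD (n = 3): Lfng is highest throughout, and the Mfng share is 7.78% to 9.06% in 3 groups and 27.2% in IL4 RA.

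Notch1, the receptor of the family best studied in blood cells (Entrez 18128, chromosome 2, 26457902 to 26503822, minus strand), read 5.98, 5.75 and 5.86 log2 CPM in naive vehicle and 6.21, 6.21 and 6.07 in naive RA. IL4 vehicle libraries gave 5.93, 6.04 and 5.95, and IL4 RA libraries 6.58, 6.37 and 6.23. Both RA groups lay above both vehicle groups, and the vehicle groups overlapped each other. Notch1 rose by 0.30 with RA in naive cells (SE 0.08, limma adjusted p = 0.0432) and by 0.42 in IL4 cells (adjusted p = 0.0040). The call in naive cells was lost under 10 alternatives, with adjusted p from 0.0515 to 0.142. They included median centring (0.0515), no intensity trend (0.0968) and leaving out any 1 of 8 libraries, namely naive vehicle 3 or 4, naive RA 2, 3 or 4, IL4 vehicle 3 or 4, or IL4 RA 3. In IL4 cells the call held throughout. The IL4 difference was 0.11 in vehicle (95% interval -0.06 to 0.28, adjusted p = 0.25) and 0.23 in RA (adjusted p = 0.0254). That in RA lost its call with quantile normalization (0.0593), without naive RA 4 (0.102) and without IL4 RA 2 (0.119).

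Notch2 (Entrez 18129, chromosome 3, 98013538 to 98150367, plus strand) is the other receptor that passed the filter. It read 6.88, 6.82 and 6.82 log2 CPM in naive vehicle and 6.87, 6.95 and 6.91 in naive RA. Under IL4 with vehicle the values were 6.51, 6.70 and 6.64, and in IL4 RA 6.86, 6.65 and 6.63. Neighbouring groups overlapped throughout the order. The RA differences, 0.07 in naive cells (95% interval -0.06 to 0.20) and 0.10 in IL4 cells (-0.03 to 0.23), were not called (adjusted p = 0.57 and 0.35). Notch2 fell by 0.23 with IL4 in vehicle (adjusted p = 0.0053) and by 0.20 in RA (adjusted p = 0.0118). The call in RA was lost without IL4 RA 3 (adjusted p = 0.0514) or IL4 RA 4 (0.0577). Per length, Notch2 stood at 10.9 CPM per kb in naive vehicle and Notch1 at 6.15, and in IL4 RA they stood at 10.0 and 8.91.

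Jag1 encodes Jagged 1, a ligand of both receptors (Entrez 16449, chromosome 2, 137081451 to 137116520, minus strand). It read 4.75, 4.74 and 4.70 log2 CPM in naive vehicle and 4.55, 4.51 and 4.50 in naive RA. With IL4 and vehicle the gene read 4.83, 4.81 and 4.64, and in IL4 RA 4.54, 4.47 and 4.31. Every RA library lay below every vehicle library, and naive and IL4 libraries overlapped. Jag1 fell by 0.32 with RA in IL4 cells (limma adjusted p = 0.0054). Its difference in naive cells was -0.21 (95% interval -0.35 to -0.07), which was not called (adjusted p = 0.0784). It was called there when only the naive groups were fitted (0.0249), with the replicate number as a block (0.0277) and without IL4 RA 4 (0.0447). The IL4 differences were 0.03 in vehicle (-0.11 to 0.17) and -0.08 in RA (-0.22 to 0.06), with adjusted p of 0.70 and 0.30. The ligand and the receptor gene Notch1 thus lay on opposite sides of vehicle in the RA groups.

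Ncstn encodes nicastrin, the gamma-secretase subunit that receives the cut receptor (Entrez 59287, chromosome 1, 172066013 to 172082789, minus strand). It read 7.44, 7.40 and 7.44 log2 CPM in naive vehicle and 7.37, 7.48 and 7.46 in naive RA. Its IL4 vehicle libraries read 7.28, 7.29 and 7.27, and IL4 RA libraries 7.43, 7.45 and 7.36. The IL4 vehicle libraries lay below the other 9, which overlapped. Ncstn fell by 0.15 with IL4 in vehicle (limma adjusted p = 0.0040) and rose by 0.14 with RA in IL4 cells (adjusted p = 0.0296). The rise lost its call under 7 alternatives (adjusted p = 0.0592 to 0.119). These were no intensity trend, a fit of the IL4 groups alone, and leaving out IL4 vehicle 2, 3 or 4 or IL4 RA 2 or 3. The RA difference in naive cells was 0.01 (-0.08 to 0.09) and the IL4 difference in RA -0.02 (-0.10 to 0.07). With quantile normalization the latter was -0.13 and called (adjusted p = 0.00469).

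Rbpj encodes the DNA-binding partner of the freed receptor (Entrez 19664, chromosome 5, 53555779 to 53657445, plus strand). It read 7.72, 7.65 and 7.69 log2 CPM in naive vehicle and 7.95, 8.03 and 7.98 in naive RA. With IL4 it read 8.81, 8.89 and 8.85 in vehicle and 9.15, 9.06 and 9.06 in RA. The groups followed each other without overlap, from 206 CPM in naive vehicle over 254 in naive RA and 461 in IL4 vehicle to 544 in IL4 RA. Rbpj rose by 1.16 with IL4 in vehicle (SE 0.04, limma adjusted p = 3.6e-11) and by 1.10 in RA (adjusted p = 7.3e-11). RA raised it by 0.30 in naive cells (adjusted p = 3.1e-04) and by 0.24 in IL4 cells (adjusted p = 0.0014). The RA effects differed by -0.07 (95% interval -0.18 to 0.05, adjusted p = 0.81). RefSeq lists 3 Rbpj pseudogenes, and how the authors' counting divided reads among them is not given in the sources used here, so the level of Rbpj is uncertain to that extent.

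For the remaining genes the difference between the RA effects in IL4 and naive cells was 0.18 for Rfng (-0.02 to 0.37), 0.12 for Notch1 (-0.12 to 0.37) and 0.03 for Notch2 (-0.16 to 0.21). It was 0.13 for Ncstn (0.02 to 0.25) and -0.11 for Jag1 (-0.31 to 0.08). Their limma adjusted p ran from 0.53 to 0.97. Intervals are not adjusted for the number of genes, and effects of the size of their bounds remain possible.

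**Figure D3:**
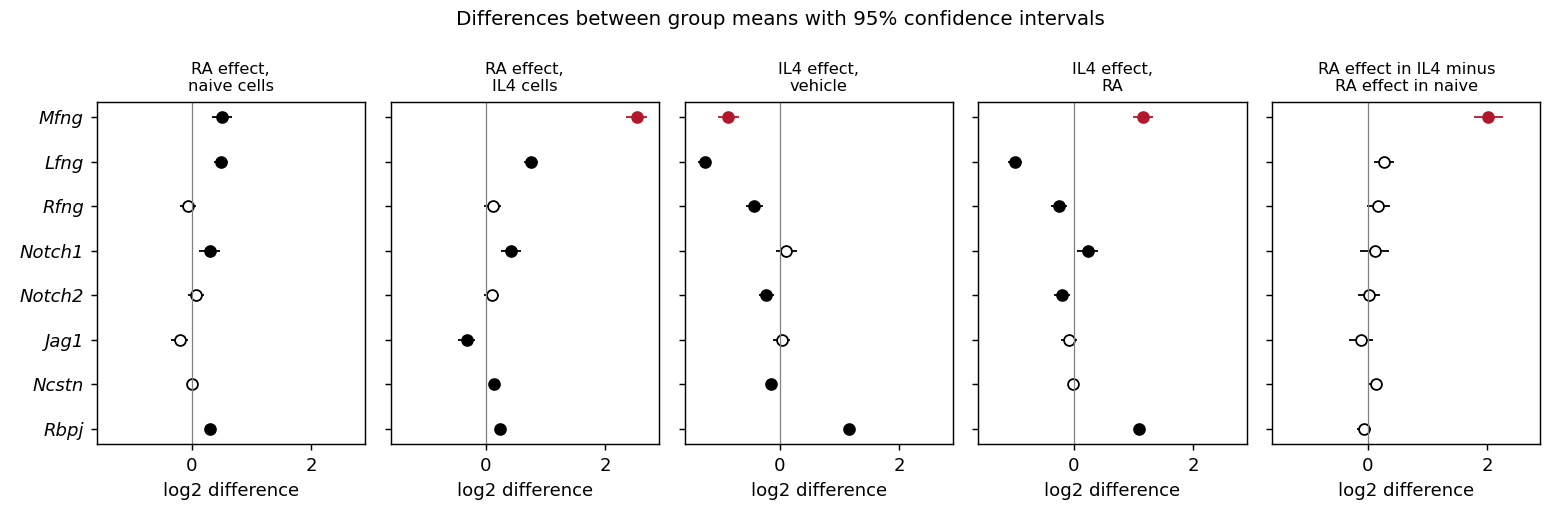
Log2 differences between group means (x axis) of 8 genes (y axis) in 4 contrasts and in the difference of the RA effects, with 95% confidence intervals; filled black points were called by limma at adjusted p under 0.05, open points were not, and red points are differences of Mfng given as a description. Mfng spans -0.86 with IL4 in vehicle to 2.53 with RA in IL4 cells, while Lfng and Rbpj lie on opposite sides of 0 in the IL4 contrasts.

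The wider pathway was described from a list of 81 symbols, of which 66 had a row and 63 passed the filter. The list was drawn up with earlier results of these data known, so its shares beside those of all genes are descriptions. Notch4 and Dll1, a receptor and a ligand, and Neurl1a had a row but did not pass. Notch3, Dll3, Dll4, Gxylt2, Dtx1, Nrarp, Rbpjl, Hes2, Hes3, Hes5, Hes7, Hey2 and Heyl were not analysed here, and Aes is an older symbol of Tle5, which was. Of the 9 HES and HEY family genes listed, Hes6 and Hey1 could therefore be followed. Counts over the list leave out Mfng and so cover 62 genes.

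In naive cells RA raised 8 of the 62 genes and lowered 2, or 16.1%, beside 6.26% of all genes. Their median difference was -0.02, and the median over all genes was 0.00. The largest rise was that of Dtx4, a ubiquitin ligase of the Deltex family, which read 6.83, 6.65 and 6.70 log2 CPM in naive vehicle and 7.91, 7.90 and 7.88 in naive RA. These libraries did not overlap, and the rise was 1.17 (SE 0.05, limma adjusted p = 5.8e-09). Neurl3, a ligase of the Neuralized family, rose by 0.53, the coactivator gene Maml2 by 0.37, and Itch, a ligase that ubiquitinates Notch, by 0.32. Adam10, the surface protease that cuts ligand-bound receptors, rose by 0.29 (adjusted p = 5.7e-04). Numb, an adaptor that antagonizes Notch, fell by 0.23 (adjusted p = 0.0375), and Furin, the convertase that matures the receptors, fell by 0.18 (adjusted p = 0.0242).

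Both decreases were close to the threshold. Numb lost its call under 9 alternatives (adjusted p = 0.0519 to 0.156), among them leaving out naive vehicle 2 or 4, naive RA 3 or 4, IL4 vehicle 3 or IL4 RA 4. Furin lost it under 6 (0.0516 to 0.101), without the intensity trend or without naive vehicle 2 or 4 or any 1 naive RA library. By role, and beside the 6.26% of all genes, limma called 4 of the 13 trafficking and ubiquitin genes with RA in naive cells. It called 0 of the 7 gamma-secretase genes, 0 of the 7 other glycosylation genes and 0 of the 15 corepressors, of which 1, 0 and 3 had an unadjusted p under 0.05. At that share of all genes, 0 calls among so few genes do not set a role apart.

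In IL4 cells RA raised 10 of the 62 genes and lowered 3, or 21.0%, beside 11.7% of all genes, with a median difference of 0.01 (0.00 over all genes). Dtx4 read 6.87, 7.0 and 6.99 log2 CPM in IL4 vehicle and 8.23, 8.20 and 8.19 in IL4 RA, a rise of 1.26 (SE 0.05, limma adjusted p = 1.7e-09) with no overlap. Neurl3 rose by 0.92, the Groucho family corepressor gene Tle3 by 0.56, Itch by 0.54 and Adam10 by 0.47. Eogt, which places N-acetylglucosamine on the receptor's EGF repeats, fell by 0.36 (adjusted p = 0.0108), and Mib1, a ligase that acts on the ligands, fell by 0.14 (adjusted p = 0.0490).

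The Mib1 call was lost under 14 alternatives (adjusted p = 0.0528 to 0.168). These include the replicate block (0.0609) and leaving out any 1 naive library, IL4 vehicle 3 or 4, or IL4 RA 3 or 4. Eogt lost its call without IL4 RA 3 (0.0522).

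Markers of other cells were measured beside these RA results. Of the 5 megakaryocyte and mast cell markers, 3 were in the table (Pf4, Ppbp and Itga2b). Their summed level was 26.2 to 33.1 CPM in naive vehicle, 45.5 to 64.3 in naive RA, 20.9 to 33.6 in IL4 vehicle and 41.8 to 58.2 in IL4 RA. It was thus higher in every RA library than in any vehicle library, mostly through Pf4, which macrophages can also express. Of the stromal and endothelial markers, Kdr fell by 0.51 with RA in IL4 cells (limma adjusted p = 0.0275), and no other that passed the filter was called there. The part of these markers in the RA results was not tested.

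IL4 was accompanied by lower RNA of 31 and higher RNA of 10 of the 62 genes in vehicle (66.1%, beside 60.1% of all genes). In RA, 22 fell and 9 rose (50%, beside 55.7%). Both counts of decreases include Jag2, which passed the filter through naive libraries alone. The median difference was -0.14 in vehicle and -0.09 in RA, against -0.01 and 0.00 over all genes. The decreases by role were 6 of the 7 gamma-secretase genes in vehicle and 4 of 7 in RA, and 4 and 3 of the 7 other glycosylation genes. Over all genes 29.6% fell in vehicle and 26.7% in RA. No gene of these roles was called higher, whereas the trafficking and ubiquitin genes split into 4 higher and 5 lower of 13 in vehicle.

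Psen2, a catalytic subunit of gamma-secretase, fell by 0.92 with IL4 in vehicle (limma adjusted p = 2.9e-10) and by 0.90 in RA (adjusted p = 4.0e-10). Aph1b, of the same complex, fell by 0.62 in vehicle. The coactivator genes Maml2 and Maml3 fell by 1.26 and 0.71 in vehicle and by 1.45 and 0.68 in RA, while Rbpj, with which their proteins assemble, rose. Neurl3 fell by 1.25 in vehicle and by 0.86 in RA, and Eogt fell by 0.68 in RA. Jag2, a second Jagged gene, read -0.14, 0.51 and 0.48 log2 CPM in naive vehicle and -2.07, -1.97 and -1.48 in IL4 vehicle. Its naive RA libraries read -0.19, 0.32 and -0.30 and its IL4 RA libraries -2.14, -1.97 and -2.86. Jag2 was thus lower in all IL4 libraries, but it passed the filter through naive libraries alone, and its levels are too near the lowest value for an exact fold.

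Among the genes that rose with IL4, Hey1, a transcription factor gene that Notch switches on, was low. It read 0.53, 0.97 and 0.34 log2 CPM in naive vehicle and 0.92, 1.11 and 1.26 in IL4 vehicle, groups that overlapped. It read 0.39, 0.71 and 0.64 in naive RA and 1.49, 1.5 and 1.48 in IL4 RA, groups that did not. Hey1 rose by 0.49 in vehicle (SE 0.17, limma adjusted p = 0.0235) and by 0.91 in RA (SE 0.17, adjusted p = 4.4e-04). The call in vehicle was lost under 6 alternatives (0.0539 to 0.109), with quantile normalization, in a fit of the vehicle groups alone, and without naive vehicle 2 or 4 or IL4 vehicle 3 or 4. Hes6, the other gene of the HES and HEY families measured, fell by 0.21 in vehicle (adjusted p = 0.011) and was not called in RA.

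Dtx3l, a Deltex family ligase, rose by 0.53 in vehicle, and Neurl1b by 0.42 in vehicle and 0.52 in RA. Itch rose by 0.27 and 0.49, and Dtx4 by 0.23 and 0.31. The acetyltransferase gene Kat2b rose by 0.29 in vehicle and by 0.21 in RA (adjusted p = 0.0306), and the call in RA was lost under 7 alternatives (0.050 to 0.148), among them without naive RA 2, IL4 RA 2 or IL4 RA 4. Tle3 rose by 0.42 in RA, and its difference in vehicle was -0.02 (adjusted p = 0.73). Rbpj, Itch and Dtx4 were thus called higher in all 4 contrasts, which share libraries.

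**Figure D4:**
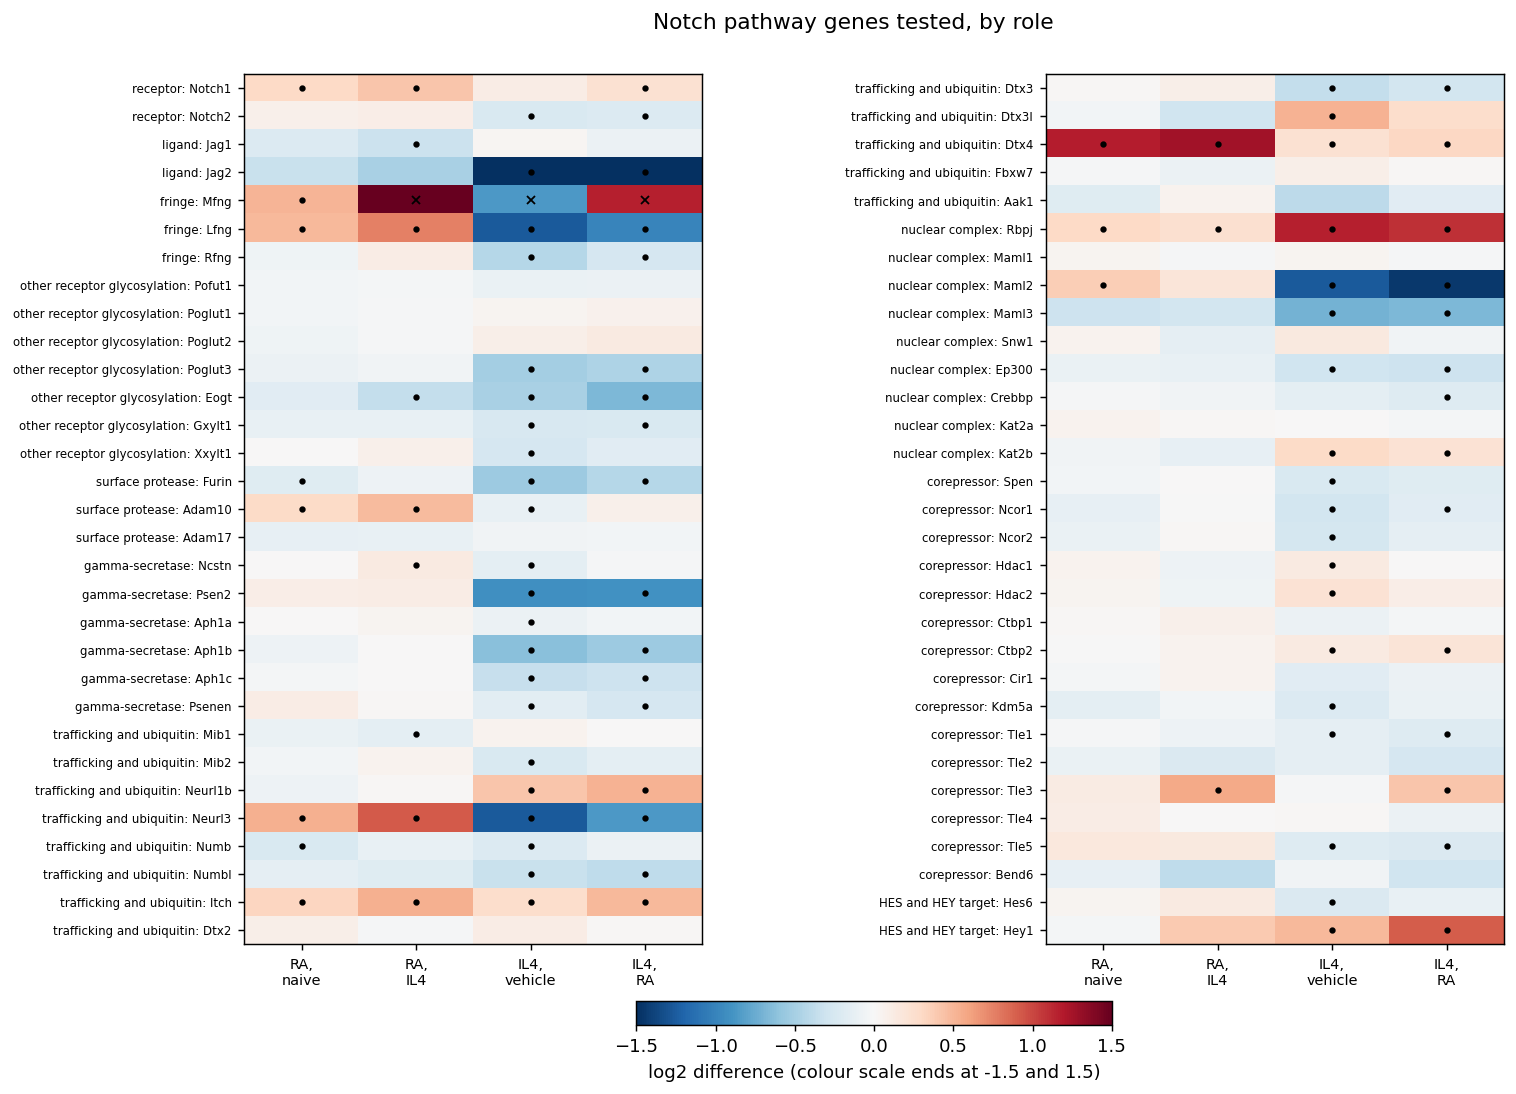
Log2 differences (colour, blue lower and red higher, with the scale ending at -1.5 and 1.5) of the Notch pathway genes tested, in rows ordered by role (1 of the 63 is not drawn), in 4 contrasts (columns); dots mark genes called by limma at adjusted p under 0.05 and crosses the Mfng differences given as a description. Blue cells with a dot are frequent in the IL4 columns, where limma called 31 and 22 of the 62 genes tested lower. Dtx4 is the darkest red gene with RA in naive cells. Both counts include Jag2, which passed the filter through naive libraries alone.

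Whether the RA effect depended on IL4 was tested by the difference of the effects. It was called for 2 of the 62 genes, or 3.23%, beside 0.38% of all genes, and both were larger with IL4. Tle3 read 5.12, 4.97 and 5.05 log2 CPM in naive vehicle and 5.18, 5.17 and 5.17 in naive RA. IL4 vehicle libraries gave 5.06, 4.96 and 5.06, and IL4 RA libraries 5.60, 5.68 and 5.50. The RA libraries lay above the vehicle libraries in both kinds of cell, and the IL4 RA libraries lay above all others. In naive cells the difference of Tle3 was 0.13 and was not called (limma adjusted p = 0.21). Its effects differed by 0.44 (SE 0.08, limma adjusted p = 0.0301). Neurl3 read 8.55, 8.66 and 8.68 in naive vehicle, 9.11, 9.16 and 9.20 in naive RA, 7.33, 7.37 and 7.42 in IL4 vehicle and 8.29, 8.28 and 8.31 in IL4 RA. It rose with RA in both kinds of cell, by 0.39 more with IL4 (SE 0.06, adjusted p = 0.0156). Both calls were lost without the intensity trend (adjusted p = 0.0721 for Neurl3 and 0.0878 for Tle3). Neurl3 also lost its call without naive vehicle 4 (0.0521), naive RA 3 (0.0537) or IL4 vehicle 3 (0.0525). Tle3 lost it without any 1 of 8 libraries (0.0620 to 0.0840), namely naive vehicle 2 or 4, naive RA 2, 3 or 4, IL4 vehicle 3, or IL4 RA 2 or 3.

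The tested genes whose pattern was most like that of Mfng were found by the root mean square difference in log2 CPM over the 12 libraries, after centring each gene on its mean. A gene with no variation would differ from Mfng by 0.92. Of 11259 genes compared, Smg6, which acts in nonsense-mediated decay, came closest at 0.41, followed by the adhesion receptor gene Adgre5 (0.42), the nuclear receptor cofactor gene Nrip1 (0.47), Palm (0.48), the histamine receptor gene Hrh1 (0.48) and Rbpms (0.48). With RA, Smg6 differed by 0.13 in naive and 1.66 in IL4 cells, and Adgre5 by 1.11 and 1.56. Among the genes chosen with Mfng the closest was Notch1, at 0.76 and rank 151, and Lfng stood at 0.90 and rank 2370. Ranks of the other pathway genes were not taken. This likeness is a description of 12 libraries and includes the contrast Mfng was chosen for.

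Card10, which encodes a CARD scaffold protein, is the nearest tested gene to Mfng. It lies on the same strand at 78775123 to 78803072 of chromosome 15, so that its end is 1.61 kb before the start of Mfng. Card10 was at the lowest value of the table, -3.67 log2 CPM, in all 3 naive vehicle libraries, and read -3.24, -3.25 and -2.67 in naive RA. Under IL4 with vehicle the values were -2.03, -2.28 and -2.31, and in IL4 RA 1.38, 1.43 and 1.12. The IL4 RA libraries lay far above the rest, as for Mfng, with a difference of 3.51 from IL4 vehicle. Card10 passed the filter through the IL4 RA libraries alone, so the difference is given without a test, and it is inexact because the IL4 vehicle values are low.

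The other 5 neighbours lie more than 100 kb away. Rac2, a GTPase gene, rose by 0.41 with RA in naive cells (limma adjusted p = 4.1e-05) and by 0.50 in IL4 cells (adjusted p = 3.9e-06). Cyth4 rose by 0.26 and 0.22, Sh3bp1 differed by -0.03 and rose by 0.21, and Gga1 and Gm36738 differed by at most 0.07 and were not called.

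**Figure D5:**
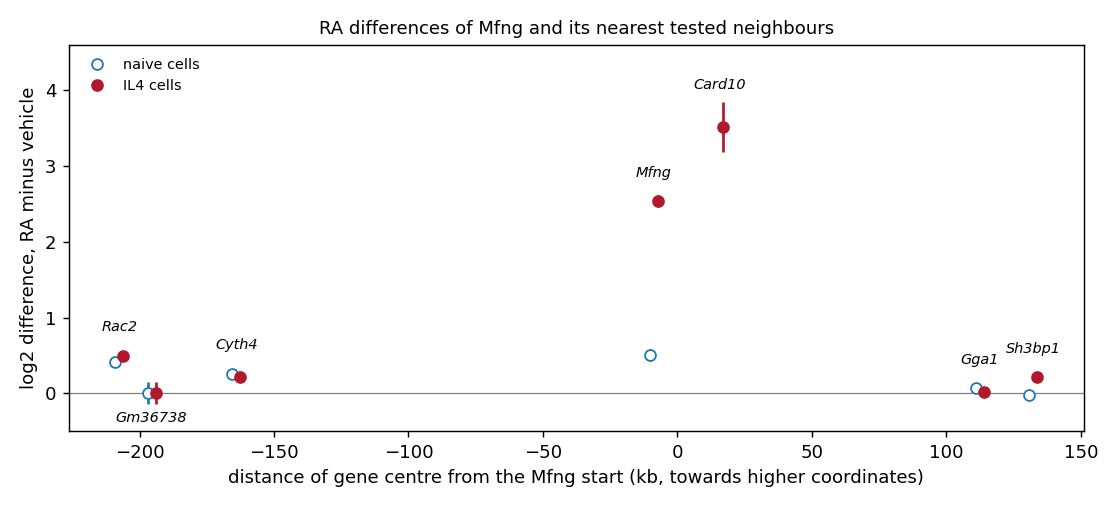
Log2 difference of RA against vehicle (y axis, points with SE) for Mfng and its 6 nearest tested neighbours, against the distance in kb of each gene's centre from the Mfng start (x axis); open points are naive and filled points IL4 cells. Card10 (an inexact 3.51 in IL4 cells; no naive point, since its naive vehicle libraries were at the lowest value) and Mfng (2.53) stand above the others, which reach 0.50.

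The libraries were checked against their labels in ranges. All 8 macrophage markers were present, at a summed 36500 to 40873 CPM in naive and 20977 to 23634 CPM in IL4 libraries. They did not all move alike. With IL4 in vehicle, limma called Csf1r, Adgre1, Mertk, Fcgr1, Lyz2 and Cd14 lower. Cd68 (-0.04) and Itgam (0.08) were not called. None of the 5 B cell markers had a row. For T and NK cells 3 of 7 (1.37 to 3.17 CPM), for neutrophils and progenitors 2 of 6 (2.14 to 4.34 CPM) and for dendritic cells 3 of 6 markers (3.79 to 7.98 CPM) were in the table. Those sums were higher in IL4 than in naive libraries. The T and NK cell markers in the table, Cd247, Lck and Klrb1c, all had higher means with IL4, in vehicle and in RA. From naive vehicle to IL4 vehicle their means went from -0.60 to 0.28, -1.03 to -0.16 and -1.55 to -0.17 log2 CPM. Members of the other lists did not all move alike. Of the genes listed for dendritic cells, Zbtb46 was higher by 3.55 with IL4 in vehicle, whereas Kit fell by 1.88 (limma adjusted p = 8.6e-06). Xcr1, which did not pass the filter, had a mean of -1.24 log2 CPM in naive vehicle and -0.79 in IL4 vehicle. In naive RA and IL4 RA its means were -0.29 and -0.47. Zbtb46 passed the filter through the IL4 libraries alone, so its difference is given without a test. Among the neutrophil markers, S100a8 rose by 1.15 (adjusted p = 5.6e-06), whereas Camp, which did not pass the filter, had a mean of -0.82 log2 CPM in naive vehicle and -1.62 in IL4 vehicle. Their part in the IL4 results was not tested. Stromal and endothelial markers, 7 of 7 in the table, summed to 63.2 to 74.1 CPM in naive and 33.7 to 53.6 CPM in IL4 libraries. Their members did not all move alike either. With IL4 in vehicle, limma called Pecam1 (-2.66) and Col1a1 (-1.12) lower. Col1a2, Pdgfrb, Dcn and Kdr (0.16) were not called, and Cdh5 did not pass the filter. Rarb, a known RA target, rose by 4.11 and 3.45 with RA in naive and IL4 cells, and Arg1, a known IL4 target, by 8.51 with IL4 in vehicle. Estimated depth was 30.8 to 48.1 M reads per library, so 1 read was worth 0.0208 to 0.0325 CPM, and the IL4 RA libraries were the shallowest (30.8 to 32.3 M).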

How the data were processed

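Stranded poly(A) RNA of 12 libraries was sequenced for 101 cycles from 1 end on 1 lane, per the labels' protocols. Per the submitters' processing notes the authors used bcl2fastq 2.20, Salmon 0.13.1, edgeR 3.32.1 and genome build GRCm38, with roles not given in the sources used here. The deposited values are log2 CPM, TMM-scaled by the authors according to the table's name, with a lowest value of -3.67 (0.0783 CPM) shared by all libraries. Linear sums were 950904 to 1056493 CPM per library. Read counts were not analysed here, so depth per library is an estimate, from the spacing of the smallest values (the step that 1 read makes), and rests on 5 to 18 genes.

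The log2 values were used as deposited. Of 13553 genes, the 12116 that reached 1 CPM in 3 or more libraries entered the test, and 1437 did not; 38 rows had no symbol. Removing genes by level can leave in a gene through its high group alone. A linear model in limma 3.58.1 (R 4.3.3) had 1 mean per group over all 12 libraries, so the groups share an estimate of the spread, and used an intensity trend. P-values are two-sided and adjusted by Benjamini-Hochberg over all genes tested in each of 5 contrasts, with calls made at an adjusted p under 0.05. Differences are of log2 group means, with SE or 95% intervals from the model, and levels are log2 CPM with SD (n = 3). The prior in the values makes differences of low genes too small.

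The members and the gene lists were chosen with earlier results of these data known. Mfng was named for its RA difference in IL4 cells, so contrasts that use IL4 libraries are given for it without a test. Further pathway genes named are up to 6 called increases and up to 6 called decreases per contrast. The values of 1 pathway gene are not reported here, though it is in the counts. Genes most like Mfng are the 6 with the smallest difference in pattern, predicted genes left out, and neighbours are the 3 nearest tested genes on each side by RefSeq. Hes6, Jag2 library values and roles were described outside that rule, after values were seen. Promoter windows came from RefSeq and coding sequences, strands and transcript lengths from GENCODE vM21.

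Whether equal library numbers mark paired libraries was checked by correlating their deviations from the group means. For IL4 vehicle against IL4 RA the correlations were 0.245, 0.193 and 0.128, and for naive vehicle against IL4 vehicle 0.140, 0.209 and 0.182. Each exceeded 0.1, the cut set for reading the numbers as pairs, which the labels do not state. The cut of 0.1 was a choice and was not tested. The reported fits do not use the library numbers, which enter only the fit with the replicate block. For naive vehicle against naive RA the correlations were 0.510, 0.277 and 0.0706, and for naive RA against IL4 RA 0.0895, 0.186 and 0.126. Here 0.0706 and 0.0895 fell below the cut, though 0.510 was the highest of all. Libraries with unequal numbers were not compared, so these values do not settle whether the numbers pair the libraries. The settings varied were the filter (none, or 4 CPM), the scale (log2(CPM + 1)), the scaling (median centring, quantile normalization) and the variance model (no intensity trend, robust moderation). Fits were also made to a contrast's own groups, with the replicate block and without each library in turn.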

Additional observations from a re-analysis of the deposited data

Results flagged for a closer look

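Both results here are genes whose RA effect differed between IL4 and naive cells by a test of the difference itself. Neurl3, a ubiquitin ligase gene of the Neuralized family, rose by 0.92 with RA in IL4 cells and by 0.53 in naive cells, a difference of 0.39 (log2, SE 0.06, limma adjusted p = 0.0156). All 3 IL4 RA libraries and all 3 naive RA libraries lay above the vehicle libraries of the same kind of cell. Tle3, a corepressor gene, rose by 0.56 with RA in IL4 cells, while its difference in naive cells was 0.13 (adjusted p = 0.21), and the effects differed by 0.44 (SE 0.08, adjusted p = 0.0301). Neither call held throughout. Neurl3 lost it under 4 alternatives (limma adjusted p = 0.0521 to 0.0721) and Tle3 under 9 (0.0620 to 0.0878).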

How the results depend on the processing

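Counts of called pathway genes stayed within 1.5 times of their value in the other contrasts under every alternative. The difference of the RA effects was the exception, with 2 of 62 genes called, 0 without the intensity trend, and 0 to 2 when a library was left out. It was 0 without naive vehicle 4, naive RA 3 or IL4 vehicle 3, and 1 without naive vehicle 2, naive RA 2 or 4, or IL4 RA 2 or 3. Leaving out 1 library gave 7 to 12 genes for RA in naive cells (10 with all libraries), 9 to 16 for RA in IL4 cells (13), 32 to 43 for IL4 in vehicle (41) and 26 to 35 for IL4 in RA (31). Over the same fits the shares of all genes called were 3.43% to 7.3%, 7.38% to 12.4%, 54.6% to 61.6% and 50.4% to 56.1%.

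With the replicate block the counts were 11 for RA in naive cells, 12 for RA in IL4 cells, 42 for IL4 in vehicle, 32 for IL4 in RA and 2 for the difference of the RA effects. The block raised the share of all genes called from 6.26% to 8.15%, 11.7% to 13.7%, 60.1% to 62.4%, 55.7% to 57.7% and 0.38% to 0.644% in these contrasts. For RA in IL4 cells and IL4 in vehicle, the block ended the call of Mib1 with RA (limma adjusted p = 0.0609). It changed no other call of a named gene there. With RA in naive cells it brought a call of Jag1 (limma adjusted p = 0.0277).

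Of 832 values of the 8 genes, 791 kept direction and call, 22 lost a call, 4 gained one, 6 moved beyond their SE and 9 changed sign. The sign changes were all of differences that were not called and lay near 0. Ncstn with RA in naive cells was -0.00326 with median centring and ran from -0.0161 to 0.0397 over the fits without a library. With IL4 in RA it ran from -0.0497 to 0.0104 over those fits. Notch2 in the difference of the RA effects ran from -0.0453 to 0.0677, and Jag1 with IL4 in vehicle from -0.00600 to 0.0903. Of 853 values of the other named pathway genes, 784 kept direction and call and 69 lost the call. The causes were not tested. With 3 libraries per group, and depth known only as an estimate, small differences cannot be resolved. A fit of the contrast's own groups is the same as the reported fit for the difference of the effects and was not run.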
